A study of Mus musculus with 36 samples.

Results

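The genes described here are 30 genes of cholesterol and fatty acid synthesis, taken as a named list from the 34197 genes of a count table of mouse duodenal organoids. They cover the supply of acetyl-CoA, the mevalonate arm, squalene and lanosterol, the steps from lanosterol to cholesterol, the SREBP regulators, a sterol carrier and the fatty acid enzymes. Of the 30, 29 passed the filter on low counts, which kept 11462 genes, and Idi1, the isomerase of the isoprenoid units, did not (1 to 9 counts per library, median 3).

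The organoids came from the duodenum of C57BL/6 mice, male or virgin female and older than 8 weeks, and grew in medium with epidermal growth factor, Noggin and R-Spondin 1. They were loaded into a microfluidic chip and received DMSO or pulses of DAPT, an inhibitor of gamma-secretase that blocks Notch receptor cleavage. The pulses recurred every 90, 130 or 170 min, at 1.38 µM for 90 min, 2 µM for 130 min, and 2.6 µM for 170 min, where 2 µM is named as well. Period and dose therefore cannot be told apart, and no label states if DMSO was pulsed too. Experiments lasted 24, 48 or 72 h and began 3, 2 and 1 days after passage, so duration and days since passage cannot be told apart either. Each of the 12 combinations had 3 libraries, each from 20 to 50 organoids with no enrichment for a cell type. The labels do not say that replicates were separate cultures, so p-values measure only the spread between these libraries.

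Cells make cholesterol from acetyl-CoA through mevalonate, squalene and lanosterol, and fatty acids from acetyl-CoA through malonyl-CoA. The transcription factors SREBP1 and SREBP2, encoded by Srebf1 and Srebf2, raise the genes of both pathways when they are released from the endoplasmic reticulum. SCAP escorts them to the Golgi when sterols are low, and INSIG1 holds them back when sterols are high. In the intestinal epithelium the pathway is known to feed dividing crypt cells with membrane lipid and enterocytes with lipid for lipoproteins.

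Library totals ran from 482741 to 1447330 counts. The DMSO libraries had a median total of 828506, against 1088500 for 90 min, 876314 for 130 min and 1121960 for 170 min pulses. The lowest total was that of DMSO 24 h replicate 1. Levels below are CPM, counts relative to the library total after scaling by TMM factors, which ran from 0.903 to 1.056. All 6 fibroblast, 4 immune and 4 endothelial marker genes in the table were at or near 0, with a highest summed level of 8.08 CPM for any of these lists in any library. Enterocyte markers summed to between 947 and 5898 CPM, Paneth markers to between 1111 and 3997 CPM and proliferation markers to between 1384 and 2249 CPM, as in a mixed epithelium. Enteroendocrine markers varied widely, from 14.8 to 1062 CPM within 130 min pulses. Of the hepatocyte markers, Ttr had 23 to 189 counts per library, and Alb, Cyp7a1 and Hp at most 2. In such bulk samples, fewer cells of a type and less RNA per cell cannot be told apart.

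SREBPs, NF-Y and Sp1 are known to act together at genes of these pathways, so the members' promoters were searched for their motifs. RefSeq promoter windows of GRCm38.p6, from 250 bases before to 50 after the start, matched 25 of the 30 members with 31 windows. Fdps, Fdft1, Sqle, Stard4 and Scd2 had no entry. The motif CCAAT, the core of the NF-Y box, stood on either strand in 22 of the 31 windows (71.0%), against 37.4% of all 32851 windows. CCGCCC, a core of the GC box bound by Sp1, stood in 23 of 31 (74.2%), against 35.7%. CACGTG, an E-box, stood in 6 of 31 (19.4%), against 7.15%, and the looser CANNTG, which includes it, in 24 of 31 (77.4%), against 72.3%. A sterol element with an open base, TCACNCCAC, was found in Hmgcs1 alone among the members and in 1.24% of all windows. ATCACCCCA, which can share bases with it, was found in Srebf2 alone and in 0.280% of all windows. TGACGTCA, the cAMP element, stood in 0 of 31 windows and in 1.79% of all. These are matches of letters and not tested sites. The shares over all windows were not restricted to expressed genes. Whether the motifs bear on how members varied between libraries was not tested.

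The 250 bases before the start are shown for 4 members with distinct arrangements: Hmgcs1 (chr13:119690101-119690350, plus strand), with a sterol element between NF-Y and GC boxes; Srebf2 (chr15:82147019-82147268, plus strand), with the other sterol element; Insig1 (chr5:28071162-28071411, plus strand), with CACGTG; and Cyp51 (chr5:4104698-4104947, minus strand), with 1 NF-Y and 1 GC box. Capitals mark the NF-Y and GC box cores and the sterol or E-box motif named for that gene, on either strand.
Hmgcs1: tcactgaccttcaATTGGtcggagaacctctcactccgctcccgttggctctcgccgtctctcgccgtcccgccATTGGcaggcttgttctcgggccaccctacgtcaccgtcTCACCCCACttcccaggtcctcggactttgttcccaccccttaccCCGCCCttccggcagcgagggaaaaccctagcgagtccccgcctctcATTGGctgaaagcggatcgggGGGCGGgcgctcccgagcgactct
Srebf2: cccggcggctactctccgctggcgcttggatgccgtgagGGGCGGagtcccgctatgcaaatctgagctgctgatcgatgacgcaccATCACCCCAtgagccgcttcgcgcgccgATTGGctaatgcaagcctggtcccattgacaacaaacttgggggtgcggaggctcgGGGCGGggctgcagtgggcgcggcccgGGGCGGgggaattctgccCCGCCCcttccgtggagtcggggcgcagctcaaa
Insig1: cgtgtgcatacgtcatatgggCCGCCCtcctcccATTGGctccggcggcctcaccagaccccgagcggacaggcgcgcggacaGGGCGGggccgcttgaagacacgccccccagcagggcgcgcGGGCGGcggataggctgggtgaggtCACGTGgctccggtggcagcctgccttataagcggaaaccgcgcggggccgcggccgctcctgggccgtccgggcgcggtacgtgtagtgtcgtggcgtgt
Cyp51: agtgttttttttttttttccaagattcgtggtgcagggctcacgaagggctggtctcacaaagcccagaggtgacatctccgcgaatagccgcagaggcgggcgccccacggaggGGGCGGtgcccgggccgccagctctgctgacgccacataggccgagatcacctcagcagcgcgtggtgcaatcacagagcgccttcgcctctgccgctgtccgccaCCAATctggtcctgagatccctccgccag

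The first question was whether pulses of each period changed the members relative to DMSO. No member passed in any of these tests. For 90 min pulses against DMSO, averaged over the 3 durations, edgeR called 0 of 29 members and 0% of all tested genes, with 5 members and 908 of all 11462 genes at an unadjusted p under 0.05, and 0 members called by DESeq2. For 130 min pulses the counts were 0 members and 0% of genes, 4 members and 629 genes unadjusted, and 0 members by DESeq2. For 170 min pulses they were 0 members, 0% of genes, 1 member and 990 genes unadjusted, and 0 members by DESeq2. Of the 29 tested members, 24 had a lower fitted value than DMSO at 90 min, 20 at 130 min and 25 at 170 min. The share of all genes below DMSO is not given here, nor beside the counts by role that follow. Other genes between 7 and 8 log2 CPM, where 12 members lie, had medians of -0.10 at 90 min, 0.00 at 130 min and -0.10 at 170 min. The median log2 difference over the members was -0.11, -0.07 and -0.11 in that order, against 0.02, -0.00 and 0.01 over all tested genes. The 3 contrasts share their DMSO libraries, so these are not separate observations. The plot of member differences from DMSO gives each gene with its standard error.

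**Figure D1:**
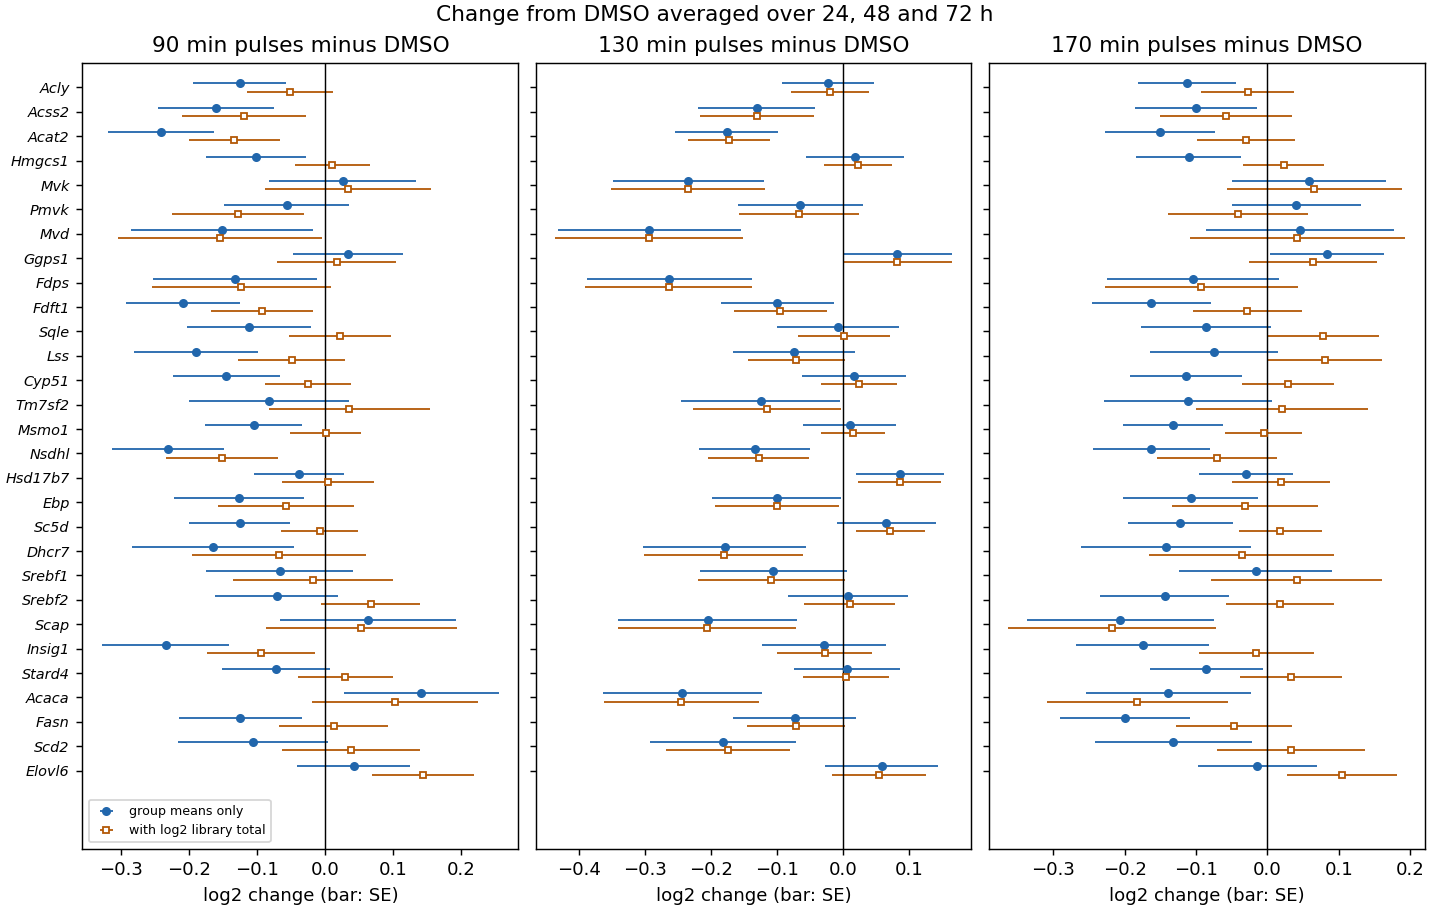
Difference from DMSO (x axis, log2) of each of 29 tested members (y axis) for the 3 pulse periods averaged over durations; circles come from the model of group means, squares from the model with log2 library total added, and bars are standard errors. The median over members moved from -0.11 to -0.01 at 90 min and from -0.11 to 0.02 at 170 min when the total was added, and stayed at -0.07 at 130 min.

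Among the enzymes that supply acetyl-CoA, Acat2 had the smallest p in 90 min and in 130 min pulses. Acat2, which joins acetyl-CoA units into acetoacetyl-CoA, ran from 267 to 400 CPM in the 9 DMSO libraries (median 297), from 236 to 288 at 90 min (median 257), from 225 to 344 at 130 min (median 266) and from 229 to 312 at 170 min (median 276). The DMSO libraries lay toward the high end, with 400 CPM in DMSO 24 h replicate 1, and the ranges overlapped. The fitted log2 difference of Acat2 was -0.24 (SE 0.078) at 90 min, with an edgeR adjusted p of 0.627, and -0.18 (SE 0.078) at 130 min, with an adjusted p of 0.865. Acly, which splits citrate, had medians of 232, 217, 233 and 217 CPM in DMSO, 90, 130 and 170 min libraries. Acss2, which activates acetate, had medians of 143, 125, 145 and 132 CPM in the same order.

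In the mevalonate arm, Hmgcs1, the HMG-CoA synthase, had medians of 396 CPM in DMSO, 371 at 90 min, 433 at 130 min and 390 at 170 min. The treatments overlapped across most of their range of 331 to 533 CPM. Mvd, the mevalonate diphosphate decarboxylase, had the second smallest p at 130 min, with a log2 difference of -0.29 (SE 0.14, edgeR adjusted p = 0.899). Its 9 libraries at 130 min ran from 26.3 to 85.5 CPM, against 64.9 to 85.8 in DMSO. Mvk, the mevalonate kinase, and Fdps, the farnesyl diphosphate synthase, had differences of -0.23 and -0.26 at 130 min, neither called. The remaining enzymes, Pmvk, the phosphomevalonate kinase, and Ggps1, which makes geranylgeranyl diphosphate, had differences between -0.07 and 0.08 in all 3 periods. At 170 min, 4 of the 6 tested genes of this arm lay above DMSO, with a median difference of 0.04.

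The 3 enzymes from farnesyl diphosphate to lanosterol lay below DMSO in each period, none of them called. Fdft1, the squalene synthase, ran from 110 to 183 CPM in DMSO (median 148), from 109 to 146 at 90 min (median 118), from 111 to 186 at 130 min (median 122) and from 107 to 142 at 170 min (median 123). Its DMSO values were spread widely, and the highest single value was in 130 min pulses at 24 h. Lss, the lanosterol synthase, had medians of 141, 129, 136 and 134 CPM in DMSO, 90, 130 and 170 min libraries. Sqle, the squalene epoxidase, had medians of 287, 267, 275 and 285 CPM. Fdft1 overlaps Ctsb in the RefSeq annotation, and no source used here gives the strand setting of the counting, so reads of overlapping genes cannot be told apart. The same holds for Tm7sf2 with Vps51, Srebf1 with Rai1, Acaca with Tada2a and Gm11437, and Acss2 with Acss2os. It also holds for Insig1 with Gm35223, Lss with 4930483K19Rik, Acat2 with Gm20591, Mvd with Gm51557 and Elovl6 with Gm35986. Some members overlap small RNA genes as well, and Acaca a pseudogene.

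Of the 8 enzymes from lanosterol to cholesterol, 8 lay below DMSO at 90 min, 4 at 130 min and 8 at 170 min, with 0 called. These counts stand without the share of all genes below DMSO. Nsdhl, a sterol dehydrogenase of the demethylation steps, had the second smallest p at 90 and 170 min. Its log2 difference was -0.23 (SE 0.082, edgeR adjusted p = 0.627) at 90 min and -0.16 (SE 0.082, edgeR adjusted p = 0.582) at 170 min. Nsdhl ran from 131 to 222 CPM in DMSO, with the highest value again in 24 h replicate 1, and from 119 to 149 CPM at 90 min. Msmo1, the methylsterol oxidase, had medians of 415, 387, 406 and 378 CPM in DMSO, 90, 130 and 170 min libraries. Cyp51, the lanosterol demethylase, had medians of 287, 268, 286 and 267 CPM. The others (Tm7sf2, a sterol reductase, Hsd17b7, a sterol ketone reductase, Ebp, a sterol isomerase, Sc5d, a sterol desaturase, and Dhcr7, the last reductase) had differences from -0.18 to 0.09.

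The regulators did not separate by treatment either. Insig1, which retains SCAP and SREBP and is itself a SREBP target, ran from 482 to 939 CPM in DMSO (median 643), from 479 to 631 at 90 min (median 553), from 437 to 1107 at 130 min (median 604) and from 501 to 637 at 170 min (median 578). The 2 libraries that stood highest were DMSO 24 h replicate 1 and 130 min 24 h replicate 3. Srebf2 had medians of 185, 168, 179 and 156 CPM, and Srebf1 of 86.9, 85.4, 79.3 and 86.4 CPM, in DMSO, 90, 130 and 170 min libraries. Scap, at 23.2 to 53.7 CPM, had a median of 39.6 CPM in DMSO and 36.2, 33.5 and 34.1 CPM in the pulsed groups. Stard4, which carries cholesterol between membranes, had medians of 224, 217, 213 and 211 CPM.

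Among the fatty acid enzymes, Fasn, the fatty acid synthase, had the smallest p at 170 min. It ran from 114 to 180 CPM in DMSO (median 136) and from 97.9 to 149 CPM at 170 min (median 117), and these ranges overlapped. The log2 difference was -0.20 (SE 0.091, edgeR adjusted p = 0.556). Acaca, the acetyl-CoA carboxylase, had log2 differences of 0.14 at 90 min and -0.24 at 130 min, from at most 62 counts per library. Scd2, a stearoyl-CoA desaturase, had medians of 607, 584, 523 and 582 CPM in DMSO, 90, 130 and 170 min libraries, and Elovl6, a fatty acid elongase, of 135, 136, 142 and 136 CPM.

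All DAPT libraries together against DMSO gave 0 called members by edgeR and by DESeq2 and 0% of genes, 3 members and 765 genes at an unadjusted p under 0.05, and a median log2 difference of -0.09 over the members. Between the periods, 0 members and 0% of genes were called in 90 against 130 min, 90 against 170 min and 170 against 130 min pulses, with 6, 2 and 3 members and 1348, 149 and 1378 genes unadjusted. DESeq2 called 0 members in all 3, with no adjusted p for 10 members in the first and 21 in the last. Acaca had the smallest p of 90 against 130 min, with a log2 difference of 0.38 (SE 0.12, edgeR adjusted p = 0.302). At single durations, 0 members and 0% of genes were called in the 9 comparisons with DMSO by edgeR, and 0 members by DESeq2. The number of members unadjusted was 9 for 90 min (1111 genes in all) and 7 for 170 min (1421 genes) at 24 h, 3 for 130 min at 72 h (1179 genes), and 0 or 1 in the other 6 (114 to 539 genes). The treatment by duration interaction called 0 members and 0% of genes, with 2 members of 272 genes unadjusted, Mvk and Acss2, each at an edgeR adjusted p of 1.00. The interaction was not run in DESeq2.

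At 24 h the members' median log2 difference from DMSO was -0.22 at 90 min, -0.09 at 130 min and -0.21 at 170 min. With log2 library total in the model these values were -0.086, -0.0059 and 0.0018. Between 7 and 8 log2 CPM, the members' medians at 24 h were -0.22 at 90 min and -0.23 at 170 min, and those of the other genes -0.19 and -0.22. Without the total in the model, the median over all tested members was 0.02, 0.03 and -0.03 at 48 h for 90, 130 and 170 min. At 72 h it was -0.09, -0.19 and -0.05. The 130 min value at 24 h depended on single libraries: it was -0.21 without 130 min 24 h replicate 3 and 0.05 without replicate 2. The smallest single p was that of Mvk for 130 min pulses at 72 h. Mvk measured 63.3, 66.9 and 52.1 CPM in those libraries and 104, 103 and 113 CPM in DMSO at 72 h. These groups did not overlap, but the share of all genes with groups apart in this way is not given here. The log2 difference of Mvk was -0.80 (SE 0.20, edgeR adjusted p = 0.286). Acss2 followed with -0.54 (SE 0.16, edgeR adjusted p = 0.286).

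The pulsed libraries differed from DMSO in total as well as in treatment, and member values moved with the total. With log2 library total in the model, the members' median difference from DMSO was -0.01 at 90 min, -0.07 at 130 min and 0.02 at 170 min. In that order 15, 19 and 14 of 29 members lay below DMSO, with 0 called in each, and the share of all genes below DMSO is not given here. At 90 and 170 min, other genes had median differences from DMSO close to the members' in the classes of high abundance, which hold 19 of the 29, and less so in the lower ones. Between 7 and 8 on the log2 CPM scale, 12 members had a median difference of -0.13 at 90 min and -0.11 at 170 min, and 1978 other genes had -0.10 and -0.10. Above 8, 7 members had -0.11 and -0.13, and 543 other genes had -0.12 and -0.13. Between 6 and 7, 7 members had -0.06 and 0.04 and the other genes 0.00 and 0.00. Between 5 and 6, the 3 members had 0.06 and -0.14 and the other genes 0.09 and 0.09. At 130 min the 12 members between 7 and 8 had -0.07, against 0.00 for the other genes.

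**Figure D2:**
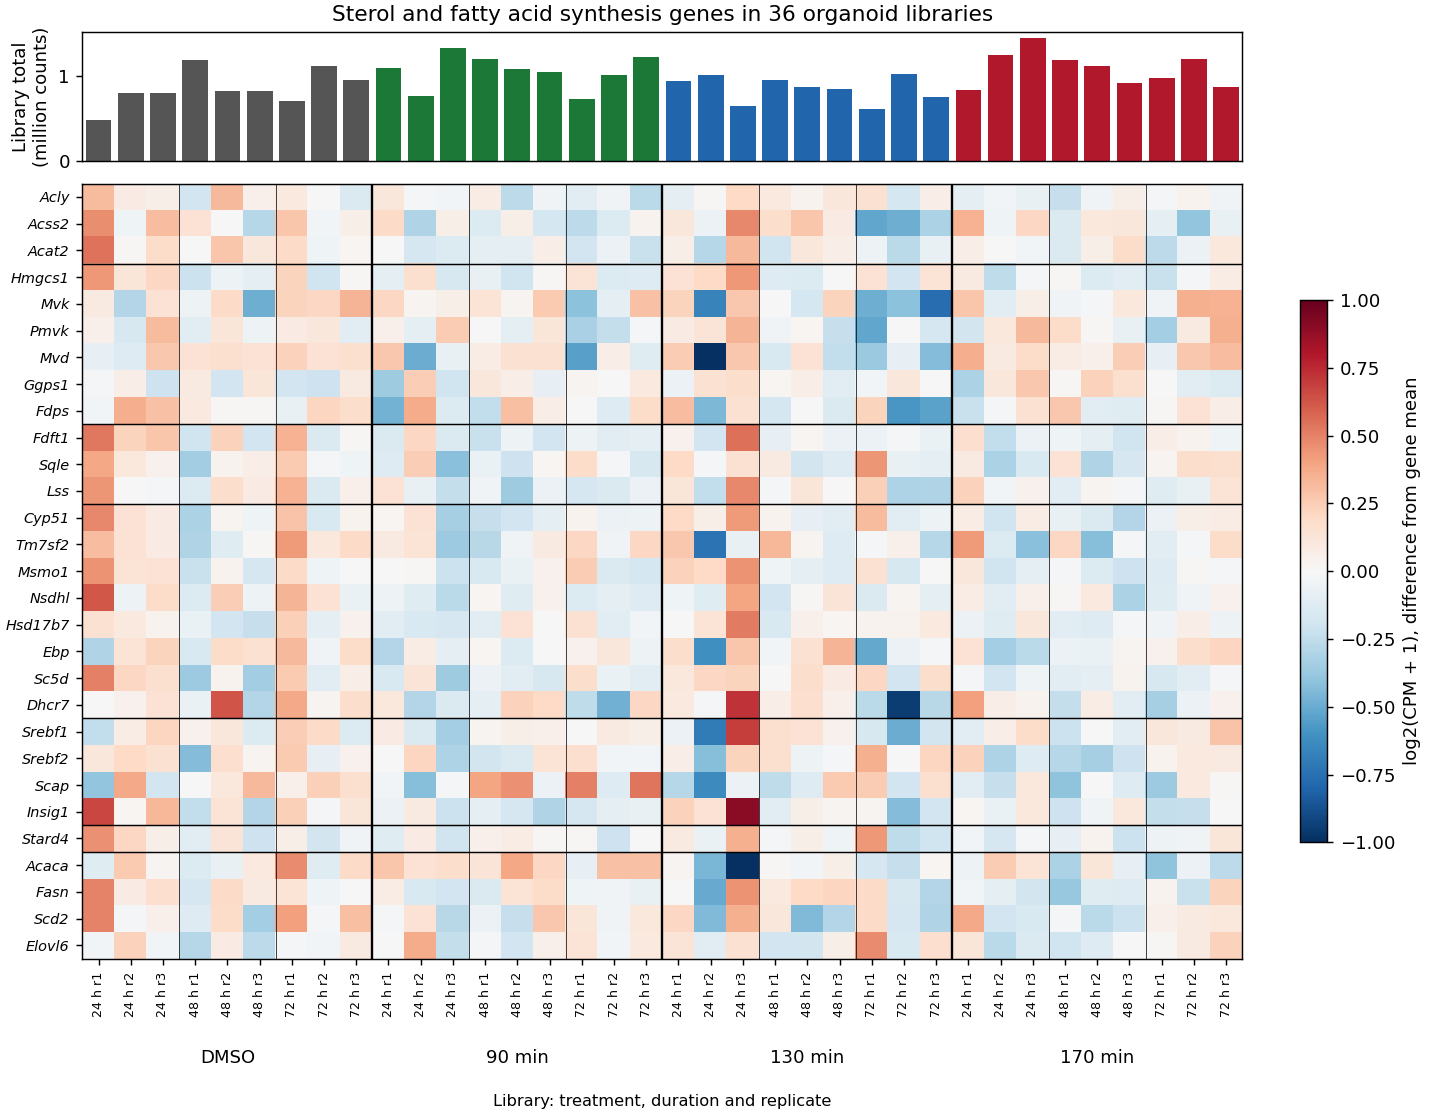
Each column is 1 of 36 libraries, ordered by treatment, duration and replicate; bars show its total count and the colours show each of 29 members as log2(CPM + 1) minus the gene's mean, saturating at 1 and -1, with lines between roles. The columns with most red, DMSO 24 h replicate 1 and 130 min 24 h replicate 3, have totals of 482741 and 656157.

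The second question was how the members varied with the library total among libraries of the same treatment and duration, since totals differed between libraries. With a higher total, 14 of 29 members were lower and 0 were higher by edgeR's test of the coefficient. With the replicate block of the paired libraries (DMSO with 90 min, 130 with 170 min) 6 members were called lower, and after thinning every library to the lowest total 5 were. The share of all genes called in these alternative fits is not given here, so the smaller counts cannot be called particular to the members. In the fit without block or thinning, 15.9% of all tested genes were called, 13.2% lower and 2.67% higher. Among the 7370 genes within the members' range of abundance, 20.1% were called lower. The median coefficient over the members was -0.32 log2 units for each doubling of the total, against 0.08 over all tested genes.

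The genes that fell with the total were spread over the roles. They were Acat2 of 3 genes of acetyl-CoA supply, Hmgcs1 of 6 in the mevalonate arm, Fdft1, Sqle and Lss of 3, Cyp51, Msmo1 and Sc5d of 8 from lanosterol to cholesterol, Srebf2 and Insig1 of 4 regulators, Stard4, and Fasn, Scd2 and Elovl6 of 4 fatty acid enzymes. Sc5d had the smallest p, with a coefficient of -0.37 (SE 0.072, edgeR adjusted p = 0.000474). Msmo1 followed with -0.34 (SE 0.065, edgeR adjusted p = 0.000512) and Hmgcs1 with -0.35 (SE 0.069, edgeR adjusted p = 0.000584). Srebf2 had the steepest coefficient of the called members, -0.45 (SE 0.093, edgeR adjusted p = 0.00103). Cyp51 fell by 0.37 (SE 0.079, edgeR adjusted p = 0.0013) and Sqle by 0.43 (SE 0.094, edgeR adjusted p = 0.00149). The highest coefficient among those not called was that of Pmvk, at 0.23 (SE 0.12, edgeR adjusted p = 0.228).

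These coefficients followed abundance, as in other genes. Between 6 and 7 log2 CPM, 3.42% of all genes and 0 of 7 members were called lower. Between 7 and 8 the share was 51.6% of all genes and 7 of 12 members, between 8 and 9 it was 71.1% and 5 of 5 members, and above 9 it was 65.0% and 2 of 2. The median coefficient of the members was 0.03 between 5 and 6 and -0.02 between 6 and 7, against 0.23 and 0.00 over all genes, and -0.35, -0.35 and -0.43 in the 3 higher classes, against -0.28, -0.33 and -0.36. The shares of members called were thus near those of all genes as abundant. TMM scaling bears on the size of the association, as the log2 TMM factor and log2 total had a correlation of 0.93 over the 36 libraries. With the library total as the only scaling, 8 members were called, the median coefficient was -0.19 and that of all genes moved to 0.21. How many of all genes were called with that scaling is not given here.

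**Figure D3:**
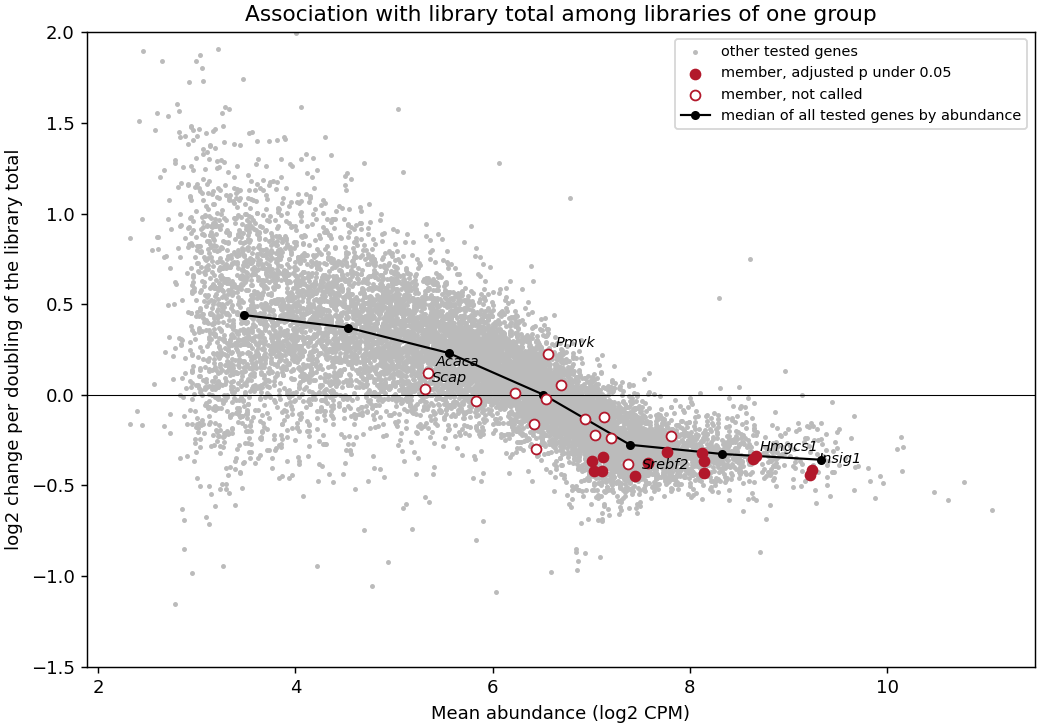
Coefficient of log2 library total (y axis, log2 change per doubling of the total) against mean abundance (x axis, log2 CPM) for all tested genes, with 13 genes beyond the plotted limits of -1.5 and 2; filled red points are the 14 members called lower, open ones the 15 not called, and the black line joins medians of all genes by abundance. The medians fall from 0.44 under 4 log2 CPM to -0.36 above 9, and the members' median lies below that of all genes in each of the 5 classes that hold members.

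Single libraries can be compared directly as well, which describes the same data again and is no separate support. The mean log2(CPM + 1) over the 29 members was higher in the library with the lowest total than in that with the highest total in 11 of the 12 groups. The exception was 90 min at 72 h, with 7.20 against 7.23. The widest gap was in 130 min pulses at 24 h, with 7.52 at a total of 656157 and 6.98 at 1012260. Fasn was higher in the lowest-total library in 12 of 12 groups, and Acat2, Hmgcs1, Sc5d and Elovl6 in 11 of 12, while Pmvk was higher there in 4 groups and Fdps and Scap in 5. The median was 9 groups over the members and 6 over all tested genes, many of which were less abundant than the members. For the member mean, no value for a set of equally abundant genes is given here. In 10 or more groups the lowest-total library was the higher for 6 of 29 members and for 15.3% of genes within their range of abundance. Srebf2 was higher in 9 of 12 groups, for example 199 against 138 CPM in 90 min pulses at 24 h and 205 against 162 CPM in DMSO at 72 h.

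**Figure D4:**
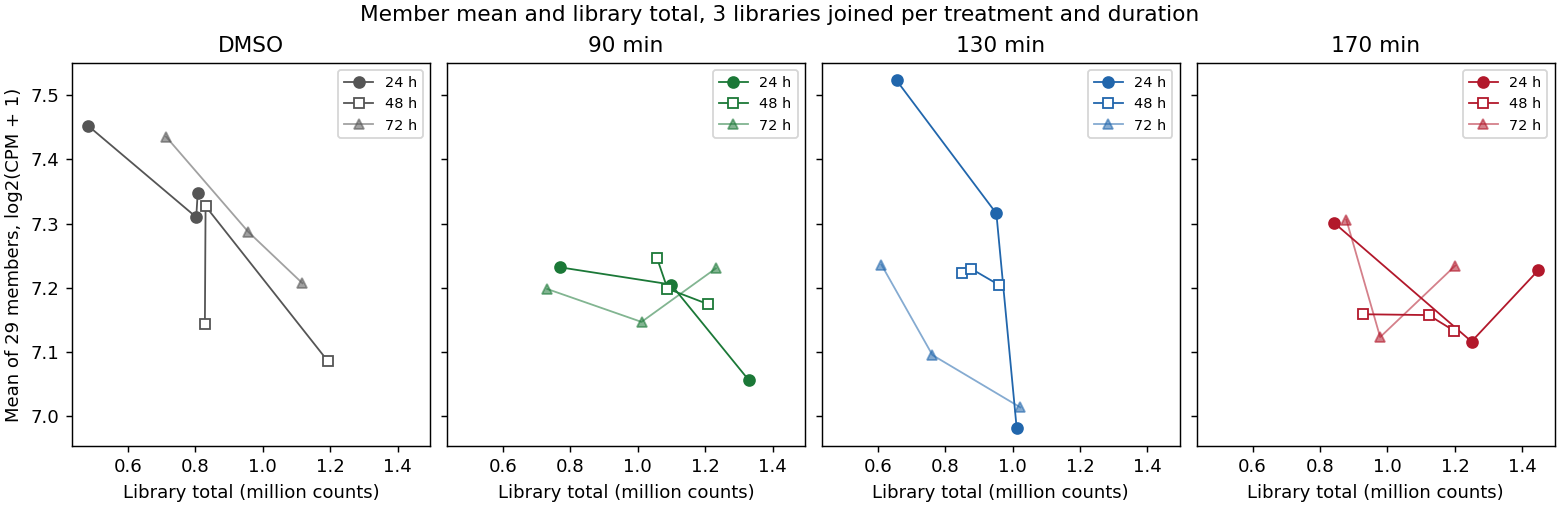
Mean of the 29 tested members (y axis, log2(CPM + 1)) against library total (x axis, counts), with the 3 libraries of each treatment and duration joined by a line. The lowest-total library lies above the highest-total one in 11 of 12 groups, most widely in 130 min pulses at 24 h.

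The count of members called depended on which libraries were fitted. Leaving out 1 library at a time gave 14 or 15 called and medians from -0.34 to -0.27. Leaving out a replicate number from every group, which leaves 2 libraries per group, gave 0, 2 and 8 called without replicates 1, 2 and 3. Within 24, 48 or 72 h alone 0 members were called, within DMSO or 170 min alone 0, and within 90 or 130 min alone 1. The median stayed negative in each of these fits. Shares of all genes called in them are not given here, so the counts cannot be set against the whole table.

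Some other genes of the pathway were also lower with a higher total, where 13.2% of all tested genes and 20.1% of those within the members' range of abundance were called lower. Of 20 tested genes of sterol synthesis and SREBP control outside the list, 8 were called lower with a higher total and 0 higher. Of 19 other fatty acid and lipid synthesis genes, 6 were called lower and 0 higher, and of 6 tested LXR target genes 0 were called. Calls rose steeply with abundance, and the abundance of these related genes is not given here. Their shares therefore have no background of equally abundant genes. Tecr, a reductase of fatty acid elongation, had a coefficient of -0.38 (SE 0.081). Of 8 proliferation markers 3 were called lower, with a median coefficient of -0.25. Of 5 Lgr5 stem cell markers 1 was called lower and of 7 goblet markers 1. Enterocyte markers had 0 of 9 called and a median of -0.39. The marker lists were not matched for abundance either, so their shares also have no background of equally abundant genes. The part of cell composition in the members' association was not tested. In the 3 period contrasts with DMSO and the 3 duration contrasts, 0 of these 45 related genes were called.

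The third question was how the members varied with duration. Between 48 and 24 h, averaged over treatments, 0 of 29 members and 0% of genes were called by edgeR, with 6 members and 1104 genes unadjusted. DESeq2 called 0 members there and gave no adjusted p for 17. The median log2 difference was -0.08, with 22 of 29 lower at 48 h, and the share of all genes lower is not given here. Insig1 had the smallest p, with a difference of -0.28 (SE 0.081, edgeR adjusted p = 0.324), and Cyp51 followed with -0.22 (SE 0.068, edgeR adjusted p = 0.351). Insig1 ran from 510 to 1107 CPM at 24 h (median 634, 12 libraries), from 479 to 652 CPM at 48 h (median 554) and from 437 to 700 CPM at 72 h (median 558). Its highest values were thus at 24 h, and the ranges overlapped.

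Between 72 and 24 h, edgeR called 0 of 29 members and 0.157% of genes, with 5 members and 1697 genes unadjusted, while DESeq2 called 1 member and 102 genes in all. Acss2 had the smallest p. It ran from 111 to 191 CPM at 24 h (median 152), from 112 to 166 CPM at 48 h (median 143) and from 95.0 to 165 CPM at 72 h (median 127). Its log2 difference was -0.31 (SE 0.075, edgeR adjusted p = 0.0636), and DESeq2 called it with -0.31 and an adjusted p of 0.0382. Insig1 differed by -0.28 (SE 0.081, edgeR adjusted p = 0.107). Both lay close to the threshold: the adjusted p of Acss2 ran from 0.00496 to 0.313 over 45 alternatives and was under 0.05 in 8 of these, DESeq2 included, and that of Insig1 ran from 0.00136 to 0.390 and was under 0.05 in 2. The median difference over the members was -0.05, with 21 of 29 lower, again without the share of all genes lower. Between 72 and 48 h, 0 members and 0% of genes were called by edgeR, 4 members and 1442 genes unadjusted, and 0 members by DESeq2.

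Within treatments, the 72 h minus 24 h difference was largest over the members in 130 min pulses. There 0 of 29 members and 0.209% of genes were called by edgeR, 6 members and 1632 genes unadjusted, and DESeq2 called 2 members, Insig1 and Acss2, among 148 genes. Within DMSO, 90 min and 170 min, edgeR called 0 members and 0% of genes, with 1 member unadjusted in each (666, 150 and 861 genes), and DESeq2 called 0 members. The median differences were -0.16 in 130 min, -0.09 in DMSO, 0.03 in 90 min and 0.02 in 170 min pulses. That treatments differ in this change was not called by the interaction test given above.

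In 130 min pulses, Acss2 measured 148, 131 and 191 CPM at 24 h, 155, 166 and 145 CPM at 48 h, and 95.0, 96.9 and 110 CPM at 72 h. The 3 libraries at 72 h lay below all 6 earlier ones. The log2 difference between 72 and 24 h was -0.62 (SE 0.16, edgeR adjusted p = 0.0647). In DMSO, Acss2 measured 190, 132 and 169 CPM at 24 h and 165, 134 and 143 CPM at 72 h, which overlap. In 170 min pulses it measured 174, 132 and 158 CPM at 24 h and 129, 104 and 130 CPM at 72 h, which do not overlap. The log2 difference there was -0.36 (SE 0.14, edgeR adjusted p = 0.611). For 130 and 170 min pulses alike, the share of all genes with groups apart in this way is not given here. The separations therefore cannot be called particular to Acss2.

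Insig1 measured 694, 655 and 1107 CPM at 24 h in 130 min pulses, 551, 618 and 604 CPM at 48 h, and 603, 437 and 519 CPM at 72 h. The 24 h values lay above all others of this treatment, with 1107 CPM far above the rest. Again the share of all genes that separate so is not given here. The log2 difference between 72 and 24 h was -0.65 (SE 0.16, edgeR adjusted p = 0.0621). In DMSO, Insig1 measured 939, 600 and 744 CPM at 24 h, 499, 652 and 482 CPM at 48 h, and 700, 588 and 643 CPM at 72 h. DMSO libraries at 24 and 72 h overlapped.

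Dhcr7, the last enzyme of one branch to cholesterol, measured 88.9, 81.8 and 137 CPM at 24 h in 130 min pulses, 86.9, 93.5 and 86.1 CPM at 48 h, and 68.6, 42.6 and 68.6 CPM at 72 h. The 72 h libraries were again below all 6 earlier ones, and the share of all genes for which this holds is not given here. The log2 difference was -0.78 (SE 0.22, edgeR adjusted p = 0.0885). In DMSO its values were 83.2, 85.6 and 92.2 CPM at 24 h and 108, 84.5 and 94.1 CPM at 72 h.

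A single library weighed on these differences. Without 130 min 24 h replicate 3, the 72 h minus 24 h difference in 130 min pulses was -0.38 for Insig1 (edgeR adjusted p = 0.313), -0.47 for Acss2 (edgeR adjusted p = 0.243) and -0.55 for Dhcr7 (edgeR adjusted p = 0.333), and the median over the members was -0.01. Without 130 min 24 h replicate 2 that median was -0.31 and 3 members were called, Insig1, Acss2 and Mvk. With log2 library total in the model, Insig1 differed by -0.70 (edgeR adjusted p = 0.016), Acss2 by -0.63 (edgeR adjusted p = 0.0498) and Msmo1 by -0.34 (edgeR adjusted p = 0.0491), so that 3 members were called. For these alternative fits the share of all genes called is not given here.

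**Figure D5:**
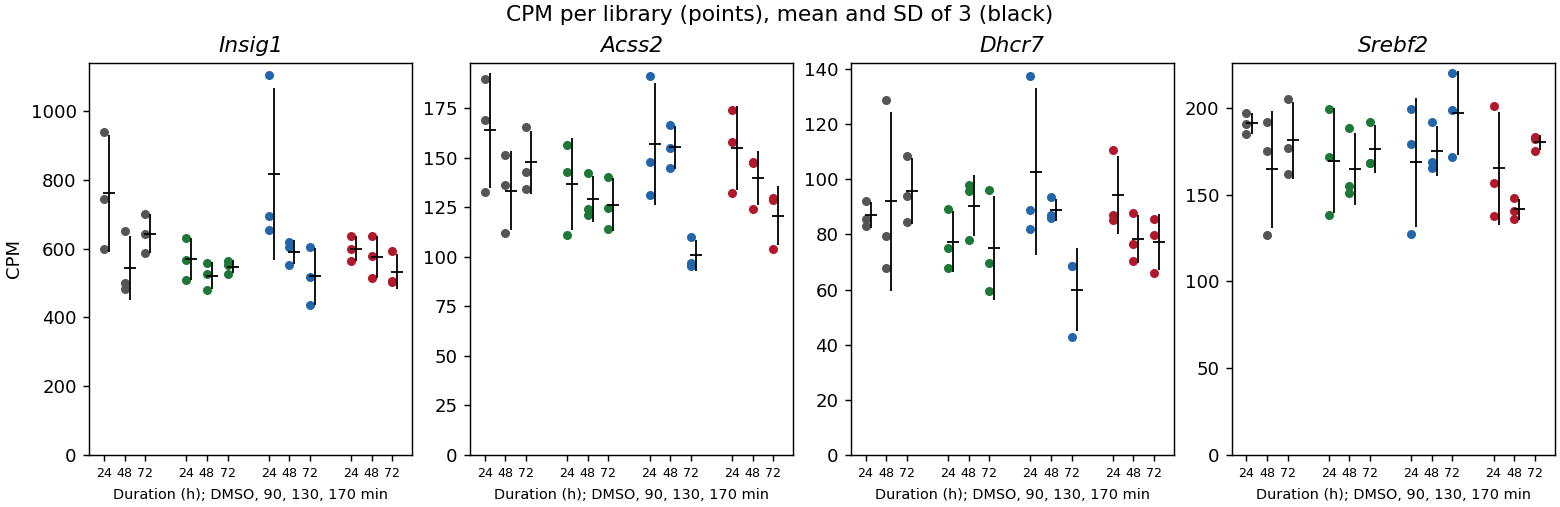
CPM (y axis) of Insig1, Acss2, Dhcr7 and Srebf2 in every library, by duration (x axis, h) within DMSO (grey), 90 min (green), 130 min (blue) and 170 min (red); black marks are the mean and SD of 3 libraries. In 130 min pulses at 72 h Acss2 lies at 95.0 to 110 CPM and Dhcr7 at 42.6 to 68.6 CPM, and Insig1 reaches 1107 CPM in 1 library at 24 h.

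Members also varied together between libraries of one group. After each group's mean was removed, the median correlation over the 406 pairs of members across 36 libraries was 0.32, and 108 pairs exceeded 0.5. The libraries share their totals, and with log2 total regressed out the median was 0.21 and 50 pairs exceeded 0.5. These are descriptions over shared libraries and carry no test. Pairs of other genes were not examined, so these values cannot be called particular to the members. Before the total was regressed out, the closest pair was Sqle and Cyp51 (r = 0.84), which act before and after lanosterol, followed by Cyp51 with Msmo1 (0.82) and Hmgcs1 with Msmo1 (0.82). With the total regressed out, Mvd with Fasn (0.72) and Mvk with Scd2 (0.72) came first, and Sqle with Cyp51 was at 0.68. Pairs of the mevalonate arm had a median of 0.08, with Mvk and Mvd at 0.70 (0.70 also with the total regressed out).

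With the total left in, Lss followed the mean of the other members most closely (r = 0.84), then Srebf2 (0.78), Fasn (0.77) and Cyp51 (0.77). Ggps1 (-0.25) and Acaca (-0.19) had negative values, and Pmvk was at 0.03. With the total regressed out, Mvk came first (0.76), then Lss (0.72) and Srebf1 (0.68), Pmvk was at 0.39, and Acaca was at -0.04. Among the 11433 tested genes outside the list, those whose values were most like the members' mean were Rps6ka1 (0.92), a ribosomal S6 kinase, Surf4 (0.91), a cargo receptor of the endoplasmic reticulum, and Pcyt2 (0.88), an enzyme of phosphatidylethanolamine synthesis. Scd1, a desaturase related to Scd2, ranked 10 (0.87), Tecr 15 (0.85) and Slc25a1, the mitochondrial citrate carrier, 35 (0.82).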

How the data were processed

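Polyadenylated RNA of 36 organoid libraries was sequenced by Sort-seq, which tags molecules with barcodes (UMIs), per the labels' protocols. STAR 2.7.8a and UMI-tools 1.1.1 are named per the submitters' processing notes; for genome build, annotation, UMI length, strand setting and counting rule, nothing was stated (not given in the sources used here). The deposited values are whole-number counts per gene symbol with no normalization, and all columns were mapped to samples. Totals of 482741 to 1447330 limit the precision of low genes such as Idi1, Scap and Acaca.

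Counts were fitted with edgeR 4.0.16 in R 4.3.3 (filterByExpr, TMM, robust quasi-likelihood tests, 12 group means, 24 residual degrees of freedom), two-sided except the interaction, with Benjamini-Hochberg adjustment over 11462 genes and a threshold of 0.05. The 22735 other genes were not tested. The association with library total added log2 total to the group means. CPM values are TMM-scaled, and means over members used log2(CPM + 1). Alternatives were DESeq2 1.42.0, other size factors, no filter, thinning to the lowest total, replicate blocks and left-out libraries. Scripts were tested on simulated data. There, 65% of 1.5-fold and 92% of 2-fold changes in 90 min pulses against DMSO were called. Of slopes of -0.4 log2 units per doubling of the total, 11% were called, in genes drawn at random from all abundances. The simulated spread came from the model with log2 total, and only the genes with set slopes followed the total. Same-numbered libraries shared no deviation there. The shares called may therefore not carry over to the real data. A member not called is therefore not shown to be unchanged.

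The members, related lists and comparisons were chosen with earlier results of these data known. Full statistics were given for up to 6 called members of a comparison with the smallest p, or the 2 with the smallest p where none was called; values by library or treatment were given for the members called most often and the regulators. Mvk, Dhcr7, Nsdhl and other genes with values beyond this rule were chosen after their values were seen. Same-numbered libraries of one duration deviated together in DMSO and 90 min (9 pairs, r from 0.119 to 0.482 over 7818 genes) and in 130 and 170 min (0.214 to 0.606), and not in the other combinations (for example -0.377 to 0.175 in DMSO and 130 min). The labels do not state the source of this pairing.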

Additional observations from a re-analysis of the deposited data

Results flagged for a closer look

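In groups of 9 libraries of one treatment, 44 sets of values of 11 named members were examined, and in 6 the highest library lay apart from the others by more than Dixon's 95% critical share of the range for 9 values; chance flags about 1 in 20 independent sets. These sets share libraries, mix 3 durations and hold some genes chosen after their values were seen, so that rate is no yardstick for the 6. Insig1 measured 1107 CPM in 130 min pulses at 24 h, replicate 3, where the next library had 694 CPM. Fdft1 measured 186 CPM and Srebf1 134 CPM in that same library, whose total was 656157, against next values of 131 and 92.2 CPM. Acat2 measured 399.9 CPM in DMSO at 24 h, replicate 1 (total 482741), where the next library had 333 CPM. Fdft1 measured 146 CPM in 90 min pulses at 24 h, replicate 2 (total 769243), where the next had 122 CPM. Dhcr7 measured 111 CPM in 170 min pulses at 24 h, replicate 1 (total 841491), where the next had 87.7 CPM. Each of these 4 libraries had the lowest total of its treatment at 24 h; the part of the total in these values was not tested.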

How the results depend on the processing

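Of the counts of members called in the treatment comparisons with DMSO, between periods and in the interaction, every one run stayed at 0 under all alternatives. The count for 48 minus 24 h was 1 with no filter on low counts. The count for 72 minus 24 h was 2 with no filter, 1 with DESeq2 and 0 to 2 with libraries left out (Acss2 without DMSO 48 h replicate 3, 90 min 24 h replicate 2, 130 min 24 h replicate 1, 130 min 72 h replicate 3 or 170 min 72 h replicate 3, and Acss2 with Insig1 without DMSO 24 h replicate 2). In 130 min pulses that count was 3 with log2 library total, 3 with the replicate block within duration, 2 with DESeq2 and 0 to 3 with libraries left out. Apart from DESeq2, the share of all genes called in these alternatives is not given here. The replicate number as a block changed no other call of a duration or treatment comparison. Among these comparisons, the pair block was run only for 90 min against DMSO and for 170 against 130 min, with 0 called members. Duration and single-duration comparisons were not run with it.

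The median difference of 170 min from DMSO was 0.018 with log2 total and 0.025 with total and replicate block together. At 24 h the median moved with the total to -0.086 for 90 min and to 0.0018 for 170 min. Left-out libraries gave medians of -0.23 to 0.053 for 130 min from DMSO at 24 h, -0.16 to 0.042 for 170 min from DMSO at 72 h, -0.062 to 0.14 for 72 minus 24 h in 90 min and -0.31 to -0.0012 in 130 min pulses. The SD of the member mean within groups was 0.113.

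The number of members lower with a higher total was 8 with no scaling factor (median -0.19), 5 after thinning and 6 with the pair block as replicate block. It was 0 within 24, 48 or 72 h alone (median -0.18 at 72 h), 0 within DMSO, 1 within 90 min (-0.16), 1 within 130 min (-0.44) and 0 within 170 min (-0.14), each with fewer samples, and 0 to 15 with libraries left out. Coefficients turned positive for Stard4 (0.015) and Scd2 (0.092) at 48 h alone and for Cyp51 (0.034) in 170 min alone. The cause of these changes was not tested. Member counts in these alternatives stand without the share of all genes called, so they cannot be set against the whole table. Alternatives for the association, single treatments and the pair block were chosen after seeing the data.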
